A study of Mus musculus with 15 samples.

Results

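Atp13a4, Upk1b, Rxfp1, Serpinb9b and Lgals4 were followed across mouse myotubes that received PGC-1a4, PGC-1a1, PGC-1a2, PGC-1a3 or GFP alone. These 5 genes, of 14860 named on the arrays by exactly 1 symbol, were selected on their measured PGC-1a4 minus GFP difference in these arrays, all with a lower signal in PGC-1a4. Each had 1 transcript cluster, a set of probes summarised to 1 value. Primary myoblasts, the precursor cells of muscle, were differentiated to multinucleate myotubes, given adenovirus 48 h into differentiation (multiplicity of infection 100), and harvested about 60 h later, with a change of medium at 12 h. Every group carried GFP, in the isoform groups from a promoter separate from that of the isoform, so the groups differ in the added coactivator and in the virus that delivers it. Each of the 5 groups had 3 arrays. Nothing in the labels says that replicates were separate cultures, so p-values reflect only the spread of these arrays, which may be technical. For the PGC-1a4 arrays one label field names isoform 1 and the titles name isoform 4, and the titles were followed.

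PGC-1a is a transcriptional coactivator that docks on nuclear receptors and other DNA-bound factors, and is best known in muscle for switching on mitochondrial genes. Alternative promoters and splicing of its gene Ppargc1a give the full-length PGC-1a1 and the shorter PGC-1a2, PGC-1a3 and PGC-1a4, of which PGC-1a4 is known for muscle growth. The 5 genes belong to unrelated families. Atp13a4 encodes a pump of the P5-type ATPase family, whose human member ATP13A2 moves polyamines out of lysosomes. Upk1b encodes uroplakin 1b, a tetraspanin of the plaques that seal the bladder epithelium. Rxfp1 encodes the receptor for the hormone relaxin, which signals through Gs and cAMP. Serpinb9b encodes an intracellular protease inhibitor of serpin clade B, related to the granzyme B inhibitor Serpinb9. Lgals4 encodes galectin-4, a sugar-binding protein of the intestinal epithelium.

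The promoters are shown first, because genes that are low in the same cultures invite a look at the DNA before their starts. RefSeq (GRCm38.p6) windows were matched by symbol for 3 of the 5 genes, with 2 starts for Atp13a4 and 1 each for Serpinb9b and Lgals4. The 250 bases before each start are printed 5′ to 3′ on the gene's own strand, and capitals mark matches to the E-box CANNTG, the AP-1 motif TGANTCA and AAGGTCA, an extended nuclear receptor half-site of the kind that estrogen-related receptors bind. The windows are chr16:29541484-29541733 (minus strand) and chr16:29544865-29545114 (minus strand) for Atp13a4, chr13:33027164-33027413 (plus strand) for Serpinb9b and chr7:28833544-28833793 (plus strand) for Lgals4.
Atp13a4 window 1: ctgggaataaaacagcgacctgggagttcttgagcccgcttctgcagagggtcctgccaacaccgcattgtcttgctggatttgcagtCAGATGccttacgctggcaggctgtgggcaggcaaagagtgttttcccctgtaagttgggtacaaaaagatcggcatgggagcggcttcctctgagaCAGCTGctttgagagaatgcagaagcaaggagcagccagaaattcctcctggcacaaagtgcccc
Atp13a4 window 2: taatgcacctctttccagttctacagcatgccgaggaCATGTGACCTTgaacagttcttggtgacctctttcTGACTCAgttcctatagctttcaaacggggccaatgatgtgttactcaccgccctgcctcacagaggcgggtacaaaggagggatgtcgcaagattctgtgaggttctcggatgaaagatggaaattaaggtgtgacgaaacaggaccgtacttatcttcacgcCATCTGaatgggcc
Serpinb9b: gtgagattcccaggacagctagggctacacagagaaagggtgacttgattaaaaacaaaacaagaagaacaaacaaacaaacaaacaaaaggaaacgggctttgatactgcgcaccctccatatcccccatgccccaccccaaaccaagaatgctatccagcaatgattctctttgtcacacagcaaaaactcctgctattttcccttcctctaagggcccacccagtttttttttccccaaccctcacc
Lgals4: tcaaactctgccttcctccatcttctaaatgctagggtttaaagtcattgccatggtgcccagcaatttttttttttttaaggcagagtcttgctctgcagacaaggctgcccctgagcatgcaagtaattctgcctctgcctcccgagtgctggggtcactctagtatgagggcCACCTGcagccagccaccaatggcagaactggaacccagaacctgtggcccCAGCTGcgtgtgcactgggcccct

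In the second Atp13a4 window the half-site was read on the reverse strand (TGACCTT), 209 bases before the start. It overlaps an E-box (CATGTG) 213 bases before the start. The same window held an AP-1 match (TGACTCA) 178 bases before the start and another E-box (CATCTG). The first Atp13a4 window held the E-boxes CAGATG and CAGCTG. Lgals4 held CACCTG and CAGCTG, and Serpinb9b held none of the capitalised motifs. All motifs were read on both strands. Among 32851 RefSeq windows of the same length, 4.08% held AAGGTCA, 6.75% held TGANTCA and 66.2% held CANNTG. The CArG-like motif, left in lower case, was matched in Serpinb9b (CCTCTAAGGG) and Lgals4 (CCACCAATGG), and 67.1% of windows held it. The cAMP response element TGACGTCA (1.55% of windows), the NF-kB motif (4.11%), the glucocorticoid response element (0.00913%) and the TATA box TATAAA (12.4%) were not matched in the 4 windows. No motif was matched in all 4, and a match is a description of letters and not of a bound site.

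The arrays themselves were compared next. The Ppargc1a signal averaged 10.46 ± 0.14 log2 in PGC-1a4 cultures, 12.61 ± 0.06 in PGC-1a1, 8.88 ± 0.02 in PGC-1a2, 8.94 ± 0.18 in PGC-1a3 and 8.53 ± 0.38 in GFP (SD, n = 3 each). Shorter isoforms may lack some of its probes, so these levels are not doses. GFP replicate 2 stood apart, with correlations of 0.982 and 0.983 across clusters with the other GFP arrays, which reached 0.991 with each other. Of 12 myotube markers 11 were measured, and all 11 lay above the 95th percentile of 719 olfactory receptor clusters, used here as a level of background, on every array. That percentile was 4.86 to 5.34 log2 over the arrays. Upk1b and Lgals4 are epithelial genes, so epithelial markers were read as well: Epcam, Krt14, Cldn7, Esrp1, Grhl2 and Ovol1 were not above background on any array, and 4 of the 11 measured were above it in PGC-1a4 arrays and 3 to 4 in GFP arrays (3 to 5 in the other isoforms). Krt19, another of these markers, was above background on some GFP, PGC-1a2 and PGC-1a3 arrays and on no PGC-1a4 or PGC-1a1 array. What this means for the 5 genes was not tested. The summed linear signal of the 11 measured epithelial markers of 12 was 340 to 376 in PGC-1a4 cultures and 321 to 448 in GFP cultures. In the other isoforms it was 321 to 375 (PGC-1a1), 367 to 435 (PGC-1a2) and 360 to 393 (PGC-1a3). Over 8 fibroblast markers, of which Pdgfra, Dcn and Lum were not above background on any array, it was 768 to 821 in PGC-1a4, 833 to 862 in PGC-1a1, 487 to 526 in PGC-1a2, 598 to 636 in PGC-1a3 and 733 to 778 in GFP cultures. Of 6 markers of proliferating myoblasts 5 were measured. Their summed signal was 2116 to 2364 in PGC-1a4, 2323 to 2547 in PGC-1a1, 3221 to 3444 in PGC-1a2, 2477 to 2540 in PGC-1a3 and 2555 to 2965 in GFP cultures, Mki67 was not above background on any array, and the part of fibroblasts and myoblasts in the results below was not tested. In such bulk RNA fewer cells of a type and less RNA per cell cannot be told apart.

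Of the 5 genes, Atp13a4 had the largest difference. Its log2 signal was 5.12, 5.12 and 4.69 in the PGC-1a4 arrays, 7.005, 6.91 and 7.002 in PGC-1a1, 7.52, 7.59 and 7.45 in PGC-1a2, 6.68, 6.58 and 6.51 in PGC-1a3, and 7.96, 7.63 and 7.91 in GFP. The 5 groups did not overlap, in the order PGC-1a4, PGC-1a3, PGC-1a1, PGC-1a2, GFP from low to high. The group means were 4.98 ± 0.25 in PGC-1a4 and 7.84 ± 0.18 in GFP (SD, n = 3 each), a difference of -2.86 ± 0.12 log2 (moderated SE), or 7.25-fold lower in PGC-1a4. The difference from GFP was -0.86 ± 0.12 in PGC-1a1, -0.32 ± 0.12 in PGC-1a2 and -1.25 ± 0.12 in PGC-1a3. Atp13a4 thus had its next lowest level in PGC-1a3 cultures, where its difference from GFP ranked 3 among the falls of all clusters with 1 symbol. These values and those for the other 4 genes against GFP or PGC-1a4 describe the choice of the genes and carry no test.

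Upk1b was low in PGC-1a4 and in PGC-1a1 cultures. It read, in log2 signal, 5.71, 6.07 and 6.42 in the PGC-1a4 arrays, 6.72, 6.38 and 6.50 in PGC-1a1, 8.22, 8.05 and 7.80 in PGC-1a2, 8.30, 8.40 and 8.16 in PGC-1a3, and 8.77, 8.54 and 8.48 in GFP. The PGC-1a4 and PGC-1a1 arrays overlapped, as did the PGC-1a2 and PGC-1a3 arrays, and all 3 GFP arrays lay above every isoform array. Upk1b averaged 6.07 ± 0.35 in PGC-1a4 and 8.59 ± 0.15 in GFP, a difference of -2.53 ± 0.17 log2, 5.77-fold lower in PGC-1a4. In PGC-1a1 the difference was -2.06 ± 0.17, 4.17-fold lower and rank 1 among the falls in that comparison. The differences were -0.57 ± 0.17 in PGC-1a2 and -0.31 ± 0.17 in PGC-1a3.

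Rxfp1, the relaxin receptor gene, was lowest in PGC-1a4 and highest in PGC-1a2 cultures. Its log2 signal was 4.88, 4.72 and 4.86 in the PGC-1a4 arrays, 6.16, 5.92 and 5.78 in PGC-1a1, 7.64, 7.43 and 7.32 in PGC-1a2, 7.06, 7.05 and 6.71 in PGC-1a3, and 6.97, 6.45 and 6.87 in GFP. The order from low to high was PGC-1a4, PGC-1a1, GFP, PGC-1a3, PGC-1a2, and of these neighbours GFP and PGC-1a3 overlapped. Rxfp1 averaged 4.82 ± 0.09 in PGC-1a4 and 6.76 ± 0.27 in GFP, a difference of -1.94 ± 0.15 log2, 3.84-fold lower in PGC-1a4. It differed from GFP by -0.81 ± 0.15 in PGC-1a1, by 0.70 ± 0.15 in PGC-1a2 and by 0.17 ± 0.15 in PGC-1a3. Without GFP replicate 2 the PGC-1a2 difference was 0.55 and the PGC-1a3 difference 0.02.

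Serpinb9b was low in PGC-1a4 and high in PGC-1a2 and PGC-1a3 cultures. Its log2 signal was 5.04, 5.05 and 4.67 in the PGC-1a4 arrays, 6.47, 6.07 and 6.26 in PGC-1a1, 6.98, 7.44 and 7.45 in PGC-1a2, 7.55, 7.46 and 7.18 in PGC-1a3, and 6.63, 6.27 and 6.23 in GFP. The PGC-1a1 arrays overlapped those of GFP, the PGC-1a2 arrays overlapped those of PGC-1a3, and all 3 PGC-1a4 arrays lay below the other 12. Serpinb9b averaged 4.92 ± 0.21 in PGC-1a4 and 6.37 ± 0.22 in GFP, a difference of -1.46 ± 0.17 log2, 2.75-fold lower in PGC-1a4. It was 1.88-fold higher in PGC-1a2 (0.91 ± 0.17) and 2.03-fold higher in PGC-1a3 (1.02 ± 0.17) than in GFP, and differed by -0.11 ± 0.17 in PGC-1a1, a difference with no settled direction (0.0166 without GFP replicate 1).

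Lgals4, the galectin-4 gene, spanned the narrowest range of the 5 genes. The log2 signal of Lgals4 was 5.25, 5.22 and 5.41 in the PGC-1a4 arrays, 5.66, 5.34 and 5.49 in PGC-1a1, 6.25, 5.87 and 5.99 in PGC-1a2, 6.36, 6.35 and 6.07 in PGC-1a3, and 6.82, 6.50 and 6.94 in GFP. The PGC-1a4 arrays overlapped those of PGC-1a1, the PGC-1a2 arrays overlapped those of PGC-1a3, and all 3 GFP arrays lay above every isoform array. Lgals4 averaged 5.29 ± 0.10 in PGC-1a4 and 6.75 ± 0.23 in GFP, a difference of -1.46 ± 0.14 log2, 2.75-fold lower in PGC-1a4. It differed from GFP by -1.26 ± 0.14 in PGC-1a1, by -0.72 ± 0.14 in PGC-1a2 and by -0.49 ± 0.14 in PGC-1a3.

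**Figure D1:**
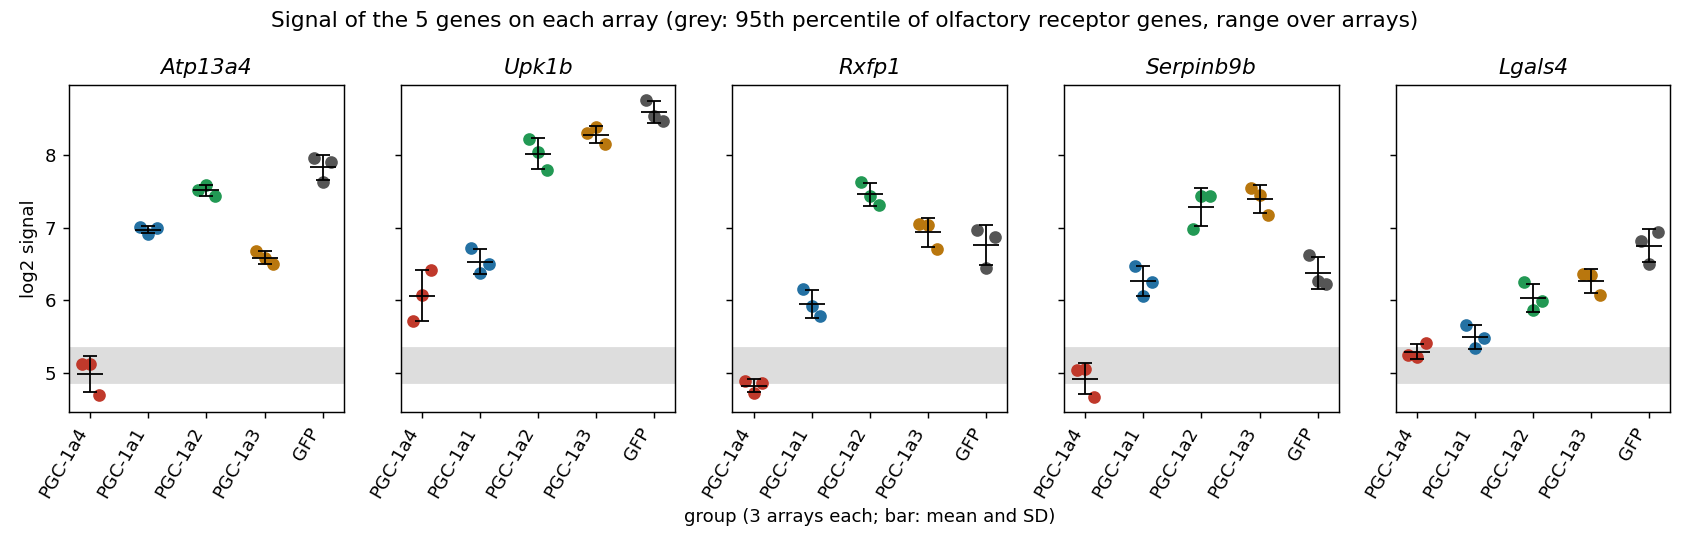
Log2 signal of the 5 genes on each of the 15 arrays, by group, with the group mean as a bar and the range of the olfactory receptor 95th percentile as a grey band. The PGC-1a4 arrays of Atp13a4, Rxfp1, Serpinb9b and Lgals4 lie in or near the band. Those of Atp13a4, Rxfp1 and Serpinb9b lie below all other arrays, and those of Upk1b and Lgals4 overlap the PGC-1a1 arrays.

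How low the PGC-1a4 levels can be read is set by the background of the array. Relative to the olfactory receptor 95th percentile of the same array, Atp13a4 lay at 0.22, -0.06 and -0.32 log2 in the PGC-1a4 arrays, Serpinb9b at 0.13, -0.13 and -0.34, and Rxfp1 at -0.03, -0.46 and -0.14. In these 3 genes the PGC-1a4 signal was thus within 0.46 log2 of background on every array, which limits the folds computed from it. Lgals4 lay above the percentile by 0.34, 0.04 and 0.40, also within 0.46 log2, so the same limit holds for its fold. In the PGC-1a1 arrays Lgals4 lay above it by 0.74, 0.31 and 0.37, which limits its comparisons with PGC-1a1 as well. Upk1b lay above the percentile by 0.81, 0.89 and 1.41 in the PGC-1a4 arrays.

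The values that chose the genes stand as follows. By the PGC-1a4 minus GFP difference, among 14996 clusters with 1 symbol, Atp13a4 ranked 3, Upk1b 4, Rxfp1 7, Lgals4 21 and Serpinb9b 22 from the bottom. Slc7a11, the cystine transporter gene (-3.71), and Nqo1, a quinone reductase gene (-3.05), ranked 1 and 2, and Ptgs2, the prostaglandin synthase gene (-2.51), and Hspa1a, the inducible heat shock protein gene (-2.41), lay between Upk1b and Rxfp1. Fam135b (-1.5) and Pir (-1.49) stood just above Lgals4 in size, and the kinase gene Plk2 (-1.45) and the iron exporter gene Slc40a1 (-1.42) just after Serpinb9b. Without GFP replicate 2 the differences were -2.96 for Atp13a4, -2.56 for Upk1b, -2.10 for Rxfp1, -1.51 for Serpinb9b and -1.59 for Lgals4.

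All 5 genes had every PGC-1a4 array below every GFP array, which held for 13.3% of all 23332 clusters and follows from how the genes were chosen. For Atp13a4, Rxfp1 and Serpinb9b every PGC-1a4 array also lay below all 12 other arrays (5.68% of clusters). In PGC-1a1, 4 of the 5 lay wholly below GFP (10.5% of clusters). In PGC-1a2, 3 lay wholly below GFP (12.7%) and 2 wholly above it (12%), and in PGC-1a3, 3 lay below (10.1%) and 1 above (13.3%). None lay wholly above GFP in PGC-1a4 or PGC-1a1 (12.9% and 11.8% of clusters). The 4 comparisons share the GFP arrays, which the choice of the genes used. The counts for the other isoforms, and that of PGC-1a4 below all 12 other arrays, therefore also depend on the choice. The shares of all clusters beside them are a description and no test. Against the other isoforms, the PGC-1a4 minus PGC-1a1, PGC-1a2 and PGC-1a3 differences of Atp13a4 were -2.00, -2.54 and -1.61 log2. For Rxfp1 they were -1.13, -2.64 and -2.12, and for Serpinb9b they were -1.35, -2.37 and -2.48. For Upk1b (-0.47) and Lgals4 (-0.20) the arrays overlapped those of PGC-1a1, and the difference was -0.293 for Upk1b without PGC-1a4 replicate 1 and -0.12 for Lgals4 without PGC-1a1 replicate 1, while the differences from PGC-1a2 and PGC-1a3 were -1.96 and -2.22 for Upk1b and -0.75 and -0.97 for Lgals4.

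**Figure D2:**
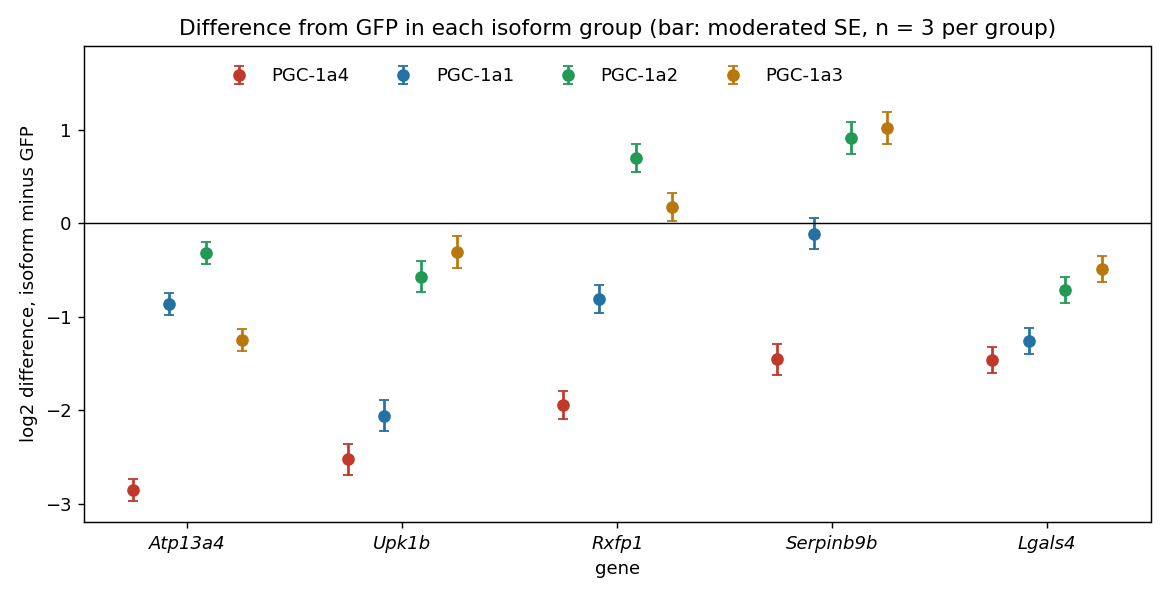
Difference of group means, isoform minus GFP, in log2 for each gene, with the moderated SE as error bars (n = 3 arrays per group). PGC-1a4 has the most negative value for all 5 genes, Upk1b and Lgals4 are nearly as low in PGC-1a1, and Rxfp1 and Serpinb9b are above 0 in PGC-1a2 and PGC-1a3.

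Whether the other isoforms differ among themselves was tested on the 9 arrays of PGC-1a1, PGC-1a2 and PGC-1a3, which the choice of genes did not use. PGC-1a1 gave lower levels than PGC-1a2 in all 5 genes. The fibroblast marker sum was higher in PGC-1a1 than in PGC-1a2 (833 to 862 and 487 to 526) and the myoblast marker sum lower (2323 to 2547 and 3221 to 3444), and their part was not tested. Upk1b differed by -1.49 ± 0.13 log2 (95% interval -1.79 to -1.19, adjusted p = 0.00031 by limma) and Rxfp1 by -1.51 ± 0.14 (-1.84 to -1.19, adjusted p = 0.00036). Serpinb9b differed by -1.02 ± 0.17 (-1.41 to -0.64, adjusted p = 0.004) and Atp13a4 by -0.54 ± 0.07 (-0.71 to -0.38, adjusted p = 0.0014). Lgals4 differed by -0.54 ± 0.13 (-0.85 to -0.24, adjusted p = 0.024). This call was lost on leaving out PGC-1a1 replicate 2 (adjusted p = 0.085) or 3 (0.069), or PGC-1a2 replicate 1 (0.069) or 3 (0.059), and with median centring (0.059). Of all clusters 9.15% were called lower and 10.2% higher in this comparison, 19.3% in all.

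Between PGC-1a1 and PGC-1a3 the genes split. Atp13a4 was higher in PGC-1a1, by 0.38 ± 0.07 log2 (95% interval 0.22 to 0.55, adjusted p = 0.011), and the other 4 were lower. Upk1b differed by -1.75 ± 0.13 (adjusted p = 0.00038), Rxfp1 by -0.98 ± 0.14 (adjusted p = 0.0039), Serpinb9b by -1.13 ± 0.17 (adjusted p = 0.0044) and Lgals4 by -0.77 ± 0.13 (adjusted p = 0.0086), all by limma. The shares of all clusters called were 6.07% higher and 7.2% lower, 13.3% in all.

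Between PGC-1a2 and PGC-1a3 only Atp13a4 passed, with a higher level in PGC-1a2 by 0.93 ± 0.07 log2 (95% interval 0.77 to 1.09, adjusted p = 0.0012 by limma). The shares of all clusters called were 3.49% higher and 4.71% lower, 8.21% in all. The PGC-1a2 minus PGC-1a3 difference was 0.53 ± 0.14 for Rxfp1 (0.20 to 0.85, adjusted p = 0.06), a value on the threshold that passed with quantile normalization (adjusted p = 0.033) and failed in each fit that left out 1 array (0.054 to 0.16). It was -0.27 ± 0.13 for Upk1b (-0.57 to 0.04, adjusted p = 0.28), -0.23 ± 0.13 for Lgals4 (-0.53 to 0.08, adjusted p = 0.38) and -0.11 ± 0.17 for Serpinb9b (-0.49 to 0.27, adjusted p = 0.78). These intervals do not show equal levels. The smallest p that an exact test of 3 arrays against 3 allows is 0.1, and limma reaches smaller ones by pooling the variance across clusters.

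**Figure D3:**
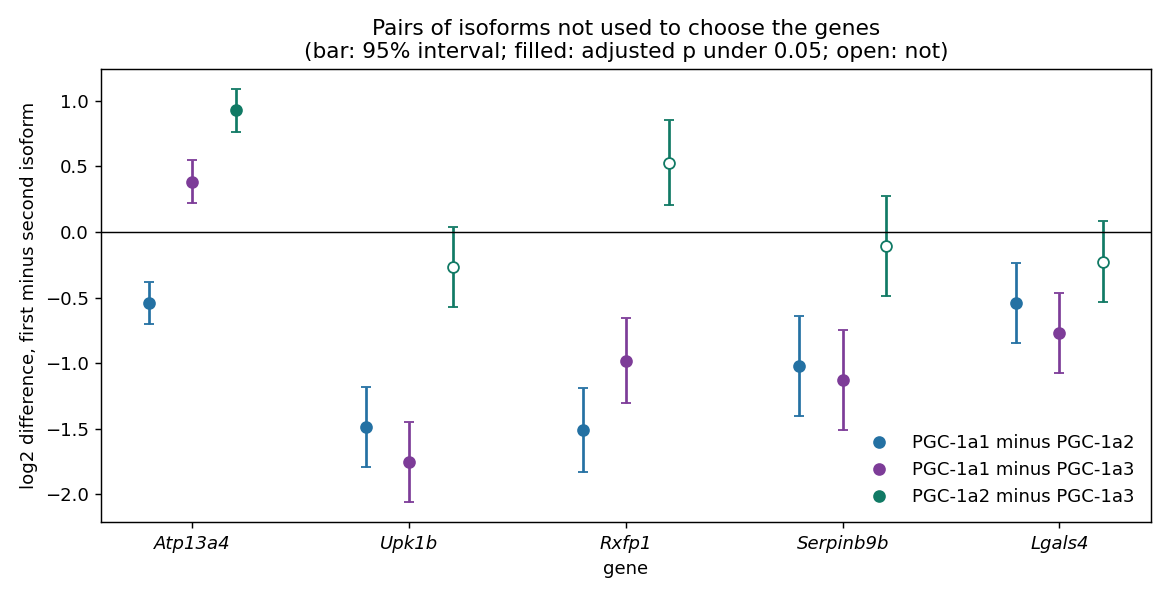
Differences between PGC-1a1, PGC-1a2 and PGC-1a3 in log2 for each gene, with 95% intervals from the fit of 9 arrays. All 5 genes lie below 0 for PGC-1a1 minus PGC-1a2, and Atp13a4 alone lies above 0 for PGC-1a1 minus PGC-1a3.

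The relatives of each gene were then counted, with the 5 genes left out. In all, 7.05% of clusters were called higher and 7.22% lower in PGC-1a4 than in GFP by limma over the 15 arrays (adjusted p under 0.05), and the median difference of all clusters was -0.02 log2. Of 27 listed clade B serpins other than Serpinb9b, 15 were measured, 0 were called higher (8 of the 15 had an unadjusted p under 0.05 in either direction) and 6 lower, with a median of -0.23. The list was drawn up with results of these arrays known and so is no independent evidence of a direction. Without GFP replicate 3 the number called lower was 4, and with only the PGC-1a4 and GFP arrays in the fit it was 1, Serpinb7. The number called higher was 1 with quantile normalization and 1 without PGC-1a4 replicate 2.

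Serpinb7 had the smallest p of the serpins. The Serpinb7 log2 signal was 7.44, 7.33 and 7.49 in the PGC-1a4 arrays and 9.14, 8.83 and 8.90 in GFP, a difference of -1.54 ± 0.10 (adjusted p = 1.7e-06). It also fell in PGC-1a1 (-0.55 ± 0.10, adjusted p = 0.0041) and rose in PGC-1a2 (0.69 ± 0.10, adjusted p = 0.001). In PGC-1a3 its difference was 0.44 ± 0.10 (adjusted p = 0.016), a call lost without GFP replicate 2 (0.052) or 3 (0.058) or PGC-1a3 replicate 1 or 2 (0.067 each).

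Serpinb9, which inhibits granzyme B, had log2 signals of 5.84, 5.75 and 5.22 in the PGC-1a4 arrays and 6.64, 6.31 and 6.65 in GFP, without overlap. The difference was -0.93 ± 0.19 (adjusted p = 0.0051), and it did not pass in PGC-1a1 (0.20 ± 0.19, adjusted p = 0.67), PGC-1a2 (0.07 ± 0.19, adjusted p = 0.89) or PGC-1a3 (0.48 ± 0.19, adjusted p = 0.16). Serpinb9b and Serpinb9 are close paralogs and probes may read both, which was not tested. Serpinb1b averaged 4.19 in PGC-1a4, below the background percentile, and 5.45 in GFP, a difference of -1.25 ± 0.26 (adjusted p = 0.0067). Serpinb6a was called lower in each isoform, with differences of -0.37 ± 0.06 in PGC-1a4 (adjusted p = 0.00078), -0.29 ± 0.06 in PGC-1a1 (adjusted p = 0.0088), -0.30 ± 0.06 in PGC-1a2 (adjusted p = 0.0054) and -0.48 ± 0.06 in PGC-1a3 (adjusted p = 0.00065). Median centring ended the PGC-1a1 and PGC-1a2 calls (adjusted p = 0.15 and 0.053). In the other isoforms the serpin list gave 0 higher and 2 lower in PGC-1a1 (4.44% of all clusters higher, 2.4% lower), 3 higher and 1 lower in PGC-1a2 (4.56% higher, 4.77% lower), and 2 higher and 1 lower in PGC-1a3 (5.02% higher, 2.97% lower). The PGC-1a3 count of 2 higher was 0 without GFP replicate 2 or 3 or PGC-1a3 replicate 1 or 2, and 1 with median centring or the replicate block. The 3 called higher in PGC-1a2 were Serpinb7, Serpinb8 (0.81, adjusted p = 0.0021) and Serpinb2 (1.02, adjusted p = 0.0012). Serpinb2 had log2 signals of 4.90, 4.81 and 4.73 in the PGC-1a2 arrays and 3.90, 3.81 and 3.68 in GFP, all below the background percentile of their arrays, so its level is not shown to have risen.

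The granzymes, proteases of killer cells that include the target of Serpinb9, and perforin were measured for 6 of 11 genes. None was called in PGC-1a4 (0 with an unadjusted p under 0.05, limma). In PGC-1a1 1 was called higher (4.44% of all clusters), Gzmb. Its log2 signals were 3.90, 3.73 and 3.86 there and 3.28, 3.53 and 3.09 in GFP, all below the background percentile.

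Of the P5-type ATPases other than Atp13a4, 3 of 4 were measured, and in PGC-1a4 Atp13a5 was the 1 called. It had a log2 signal of 6.82, 6.64 and 6.86 in the PGC-1a4 arrays, 6.50, 6.44 and 6.38 in PGC-1a1, 6.81, 6.72 and 6.63 in PGC-1a2, 6.08, 6.23 and 6.11 in PGC-1a3, and 7.24, 6.94 and 7.26 in GFP. It was below GFP in all 4 isoforms and lowest in PGC-1a3, where Atp13a4 also had its largest difference after PGC-1a4. The Atp13a5 difference was -0.38 ± 0.09 in PGC-1a4 (adjusted p = 0.019), -0.71 ± 0.09 in PGC-1a1 (adjusted p = 0.00065), -0.43 ± 0.09 in PGC-1a2 (adjusted p = 0.014) and -1.01 ± 0.09 in PGC-1a3 (adjusted p = 0.00017). The PGC-1a4 call was lost without GFP replicate 1 (0.072) or 3 (0.079) or PGC-1a4 replicate 2 (0.079), and with median centring (0.096). The PGC-1a2 call was lost without GFP replicate 1 (0.053) or 3 (0.066) or PGC-1a2 replicate 2 (0.05) or 3 (0.066). Atp13a1 and Atp13a2 differed by 0.16 (adjusted p = 0.099) and 0.02 (adjusted p = 0.93) in PGC-1a4. Atp13a1 was also called higher in PGC-1a2 (0.20, adjusted p = 0.046), a call lost in 14 of the 15 fits that left out 1 array, and in PGC-1a3 (0.28, adjusted p = 0.012), where leaving out PGC-1a3 replicate 1 gave an adjusted p of 0.06.

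Of 17 listed genes of polyamine metabolism 11 were measured, 2 higher and 2 lower in PGC-1a4. Srm, which encodes spermidine synthase, had log2 signals of 8.74, 8.72 and 8.63 in the PGC-1a4 arrays and 9.32, 9.56 and 9.40 in GFP, a difference of -0.73 ± 0.07 (adjusted p = 2.1e-05). The others called were the antizyme gene Oaz2 (0.34, adjusted p = 0.022), the spermine synthase gene Sms (0.32, adjusted p = 0.042) and Slc3a2 (-0.25, adjusted p = 0.03). Each of these 3 calls was lost in some fits that left out 1 array. The Oaz2 call was lost without GFP replicate 2 or 3 or PGC-1a4 replicate 1 or 3, that of Slc3a2 without GFP replicate 1 or 3 or any PGC-1a4 array, and that of Sms in 10 of the 15 fits that left out 1 array, with adjusted p up to 0.086, 0.1 and 0.15.

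The uroplakins other than Upk1b were measured for 4 of 5 genes, and 0 were called in PGC-1a4 (0 with an unadjusted p under 0.05, limma). Upk1a, the other tetraspanin of the plaque, differed by -0.14 log2, and Upk2, Upk3a and Upk3b, its remaining subunits, by -0.15, 0.06 and 0.02. In PGC-1a3 Upk1a rose by 0.75 (adjusted p = 9e-04). Of 27 other tetraspanins 24 were measured, 4 higher and 2 lower in PGC-1a4. Tspan1 rose by 1.43 (adjusted p = 0.00063), with 5.92, 6.04 and 6.24 in the PGC-1a4 arrays and 4.94, 4.11 and 4.85 in GFP, where it was near or below background. Tspan13 fell by 0.66 (adjusted p = 1.8e-05) and Cd82 rose by 0.60 (adjusted p = 0.00016). The fall of Tspan13 was not particular to PGC-1a4. It was also called lower in PGC-1a1 (-0.73, adjusted p = 2e-05 by limma), PGC-1a2 (-0.33, 0.0049) and PGC-1a3 (-0.78, 1e-04). Tspan12 differed by 0.64 (adjusted p = 0.017), a call lost without GFP replicate 2 (0.058) or PGC-1a4 replicate 1 (0.073). In PGC-1a1 Tspan12 was also called higher (0.68, adjusted p = 0.022 by limma), a call lost without GFP replicate 2 or any PGC-1a1 array.

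The relaxin family ligands and receptors other than Rxfp1 were measured for 6 of 8 genes, and 0 were called in PGC-1a4 (1 with an unadjusted p under 0.05, limma). Of 25 genes of cAMP signalling, the pathway below Rxfp1, all 25 were measured, 3 higher and 4 lower. Pde4a, a cAMP phosphodiesterase gene, rose by 0.50 (adjusted p = 0.00051), and Nr4a3, a nuclear receptor gene that cAMP induces, fell by 0.52 (adjusted p = 0.0017). Pde4d differed by 0.42 (adjusted p = 0.0022, but 0.14 with the mean of its clusters in place of the highest). Pde4b differed by -0.46 (adjusted p = 0.019), a call lost without GFP replicate 1 (0.066) or 3 (0.08) or PGC-1a4 replicate 1 (0.067).

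The galectin list held 10 genes other than Lgals4, among them Lgals3bp, a galectin-binding protein gene and not a galectin gene. Of these 7 were measured, 0 higher (3 with an unadjusted p under 0.05 in either direction, limma) and 1 lower in PGC-1a4. Lgals9, which encodes another galectin with a pair of sugar-binding domains, had log2 signals of 4.96, 5.40 and 5.14 in the PGC-1a4 arrays and 5.67, 5.79 and 5.76 in GFP. The difference was -0.57 ± 0.14 (adjusted p = 0.013), lost without PGC-1a4 replicate 1 (0.059), and the PGC-1a4 signal was near background. In PGC-1a2 Lgals9 rose by 0.72 ± 0.14 (adjusted p = 0.0062). In PGC-1a1 its difference was -0.52 ± 0.14 (adjusted p = 0.041), a call lost in 9 of the 15 fits that left out 1 array (up to 0.14).

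**Figure D4:**
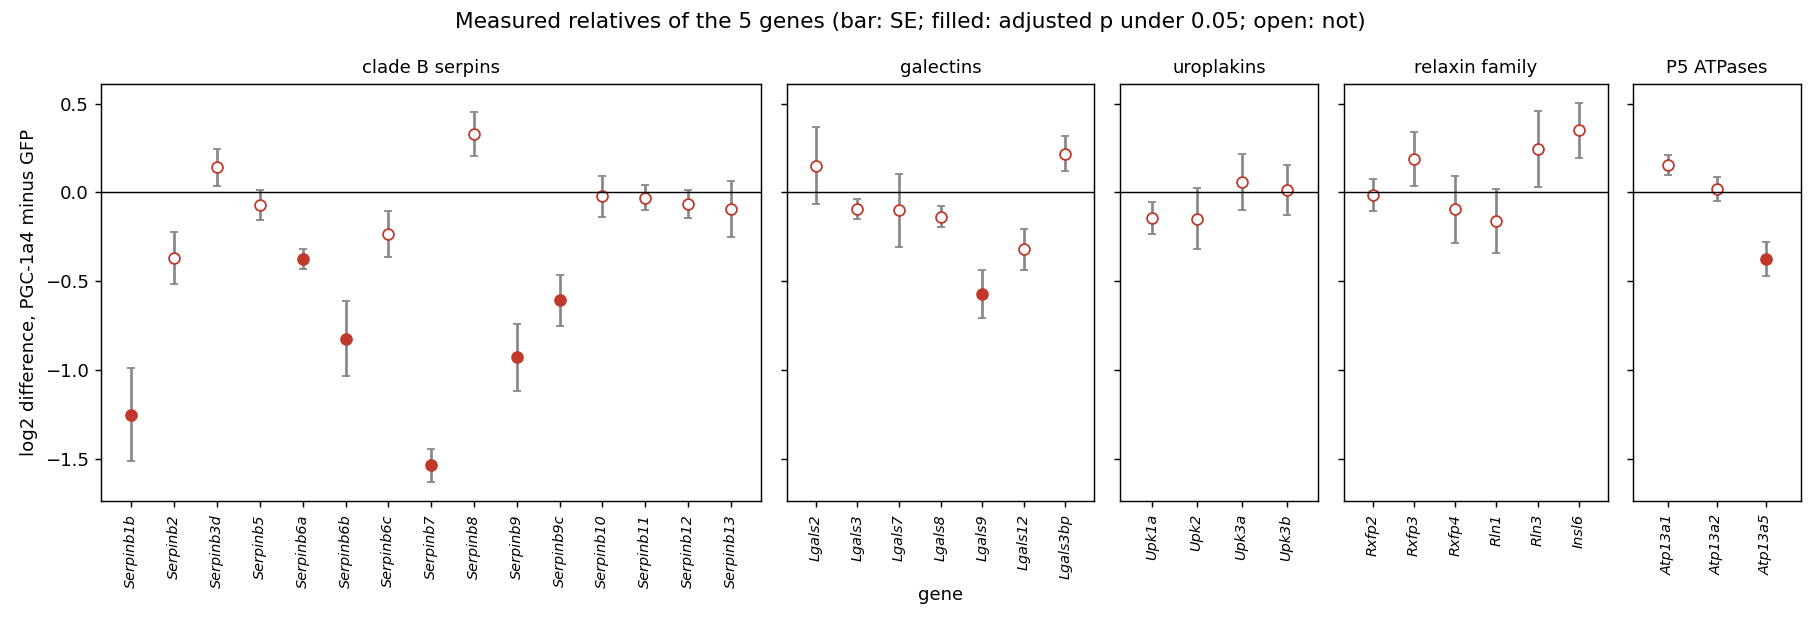
Log2 difference, PGC-1a4 minus GFP, for measured relatives of the 5 genes, with the moderated SE (n = 3 arrays per group). Filled points have an adjusted p under 0.05 and open points do not. Serpinb7 has the most negative value of the clade B serpins, and Atp13a5 is below 0 with a filled point.

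The genes most like each of the 5 were found by Pearson's r over the 15 arrays, among 674 clusters with 1 symbol whose group means spanned at least 1 log2. The points share the arrays and their 5 groups, so the values are a description of the same group pattern. Atp13a4 was most like Slc6a9, a glycine transporter gene (0.963), Mamdc2 (0.954) and Srxn1, the sulfiredoxin gene (0.948). Slc6a9 averaged 8.11 log2 in PGC-1a4, 9.19 in PGC-1a1, 9.59 in PGC-1a2, 9.33 in PGC-1a3 and 9.72 in GFP. Upk1b was most like the chymotrypsinogen gene Ctrb1 (0.978), Hspa1a (0.954) and the aldehyde oxidase gene Aox1 (0.945). Hspa1a averaged 6.61 in PGC-1a4, 7.19 in PGC-1a1, 9.03 in PGC-1a2, 8.77 in PGC-1a3 and 9.02 in GFP, the same low pair as Upk1b. Rxfp1 was most like Fst, which encodes the myostatin antagonist follistatin (0.988), Serpinb7 (0.988) and Fam171b (0.976). Fst averaged 8.94 in PGC-1a4, 9.54 in PGC-1a1, 10.48 in PGC-1a2, 10.06 in PGC-1a3 and 10.07 in GFP. Serpinb9b was most like Orc6, a replication origin gene (0.985), Fam111a (0.980) and the splicing regulator gene Ptbp2 (0.980). Orc6 averaged 7.47 in PGC-1a4, 8.27 in PGC-1a1, 8.76 in PGC-1a2, 8.85 in PGC-1a3 and 8.33 in GFP. Lgals4 had the loosest likeness, to Nrk, a kinase gene (0.917), Ctrb1 (0.902) and Gnb3, a G protein subunit gene (0.901).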

How the data were processed

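Total RNA was converted to labelled sense-strand cDNA and hybridised to Affymetrix mouse exon arrays, per the labels. The log2 signals per transcript cluster were deposited by the authors (23332 clusters, 15 arrays). Partek is named, without a role, in the submitters' processing notes. Its version, the background correction, normalization, summarization and genome build were not given in the sources used here. Because a cluster averages over exons, altered exon use could also move its value. The number of arrays limits the precision. Groups follow the titles.

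The values were used as deposited. Symbols came from the platform annotation: 14996 clusters had 1 symbol, 1019 several and 7317 none. Fits used limma 3.58.1 in R 4.3.3 (lmFit, eBayes), two-sided, with Benjamini-Hochberg adjustment over all clusters and calls at an adjusted p under 0.05, and were tested on simulated data. The 15 tests of the 5 genes used the 9 arrays of PGC-1a1, PGC-1a2 and PGC-1a3. Other differences used all 15. The 5 genes and the lists were chosen with earlier results of these data known. Named relatives are all genes of a list called in PGC-1a4 minus GFP when 5 or fewer, otherwise the 4 with the smallest p there. Genes called in the other isoforms are named only in part. For likeness the genes with the 3 highest r are named, with uncharacterised loci passed over. Relatives by protein identity were not used here. The labels do not say that the replicate numbers pair the arrays, so the main fits held no block. Of 30 same-numbered pairs 11 had correlated deviations above 0.1 (range -0.22 to 0.36), which does not settle whether the arrays were paired. Alternatives were quantile normalization, median centring, a filter at percentile 25, only the groups compared, a variance trend, array weights, the replicate block, clusters with 1 symbol averaged per gene, and leaving out each array.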

Additional observations from a re-analysis of the deposited data

How the results depend on the processing

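Of 270 alternative values for the 15 tests of the 5 genes, 257 kept their direction and side of the threshold, and all 315 differences from GFP or PGC-1a4 moved by less than 1 SD, which for the small difference of Serpinb9b between PGC-1a1 and GFP includes a turn of sign. The Lgals4 difference between PGC-1a1 and PGC-1a2 was -0.496 (adjusted p = 0.059) with median centring and -0.626 to -0.437 leaving out arrays (0.021 to 0.085). The Rxfp1 difference between PGC-1a2 and PGC-1a3 passed at 0.57 with quantile normalization (adjusted p = 0.033), 0.441 with array weights (0.039), and at 0.527 with the filter (0.043), the variance trend (0.035), 1-symbol clusters (0.03) and all 15 arrays (0.048), and was 0.412 to 0.6 leaving out arrays. That of Serpinb9b was -0.216 to 0.0455, turning positive without PGC-1a2 replicate 1 (adjusted p = 0.92). With the replicate block Rxfp1 passed (0.527, adjusted p = 0.022) and no other call of the 5 genes changed. The cause was not tested.

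Counts of called clusters moved more. PGC-1a1 minus PGC-1a3 gave 3098, with 4729 under array weights and 1675 to 2925 leaving out arrays. PGC-1a2 minus PGC-1a3 gave 1915, with 1155 under centring, 693 with only those groups, 2896 with the trend, 3273 with array weights and 596 to 1756 leaving out arrays. Against GFP, PGC-1a1 gave 1596 (393 with only those groups, 2994 with array weights, 951 to 1609 leaving out arrays), PGC-1a2 gave 2177 (1354 centred, 173, 3492, 1231 to 2166), PGC-1a3 gave 1865 (1127 centred, 36, 3072, 865 to 1775) and PGC-1a4 gave 3331 (1014 with only those groups). Fitting only those groups leaves fewer samples for the spread. The share of calls that were higher was, with and without centring, 63.5% and 52.6% in PGC-1a1 minus PGC-1a2, 60.9% and 45.7% in PGC-1a1 minus PGC-1a3, 83.8% and 64.9% in PGC-1a1 minus GFP, 58.3% and 48.9% in PGC-1a2 minus GFP, and 60.7% and 49.4% in PGC-1a4 minus GFP. With array weights it was 47.4% in PGC-1a1 minus GFP. For relatives, fits of only an isoform and GFP also ended the PGC-1a4 calls of Serpinb6a (0.058), Serpinb9 (0.054), Serpinb1b (0.086), Lgals9 (0.068), Tspan12 (0.092), Oaz2 (0.11), Sms (0.13), Slc3a2 (0.14), Pde4b (0.14) and Atp13a5 (0.16), and those of Serpinb7 and Serpinb6a in the other isoforms (0.059 to 0.17), Upk1a in PGC-1a3 (0.096), Lgals9 in PGC-1a2 (0.062) and Atp13a5 in PGC-1a2 (0.14) and PGC-1a3 (0.054). Centring ended Pde4b (0.083) and Slc3a2 (0.16) in PGC-1a4 and Atp13a5 in PGC-1a2 (0.065). Signals near the olfactory receptor level limit Atp13a4, Rxfp1, Serpinb9b and Lgals4 in PGC-1a4, and Lgals4 in PGC-1a1.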

Other observations

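The protein-coding genes next to each of the 5 on the chromosome (RefSeq, GRCm38.p6) were looked at after their values were seen. Of 10 neighbours 8 were measured, and in PGC-1a4 5 of these were called lower than in GFP and 0 higher by limma, against 7.22% of all clusters lower. Tmem144, next to Rxfp1 and encoding a membrane protein, fell by 0.85 ± 0.06 log2 (adjusted p = 3.4e-06). B4galt4, a galactosyltransferase gene next to Upk1b, differed by -0.44 (adjusted p = 0.0076). Tmem144 and B4galt4 were also called lower in PGC-1a1 (-0.42 and -0.36) and in PGC-1a3 (-0.39 and -0.66), and neither was called in PGC-1a2. In PGC-1a3 Rxfp1 differed from GFP by 0.17 and Upk1b by -0.31, so the neighbours did not follow the same order of isoforms. Atp13a5 lies next to Atp13a4, and Serpinb9 and Serpinb1b flank Serpinb9b. These 3 are also relatives of the 5 genes, so their calls are the same ones counted in the lists. Opa1, beside Atp13a4, differed by 0.08, and Ech1 and Lgals7, beside Lgals4, by -0.08 and -0.10. The number called lower was 4 or 5 leaving out single PGC-1a4 or GFP arrays, 4 with median centring and 2 with only the PGC-1a4 and GFP arrays in the fit, alternatives chosen after seeing the data. In the other isoforms the neighbours gave 1 higher and 3 lower in PGC-1a1 (4.44% and 2.4% of all clusters), 0 higher and 1 lower in PGC-1a2 (4.56% and 4.77%), and 0 higher and 3 lower in PGC-1a3 (5.02% and 2.97%).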
